A study of Mus musculus with 8 samples.

Results

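The contractile genes of smooth muscle were followed in 3T3-L1 cells, a mouse preadipocyte line that can be induced to become fat cells. The 9 genes were Acta2, Actg2, Myl9, Tagln, Cnn1, Cnn2, Tpm1, Tpm2 and Srf. They were chosen by name, through the RefSeq accessions of the array's probes, and make up 9 of the 20644 genes that could be named, with 16 of 27207 named probes. The choice of these genes and of the lists further on was made with earlier results of these data known. Counts of the 9 genes beside shares of all features are therefore descriptions and not independent tests. All 9 passed the filter for dim probes, which asked for a signal well above background on at least 2 of 8 arrays. Acta2, Myl9, Tagln, Cnn2, Tpm1, Tpm2 and Srf were well above background on all 8, Actg2 on 7 and Cnn1 on 5.

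The sh8 line stably carries a hairpin, shRNA-8, that targets slincRAD, a long noncoding RNA, and the WT line is the unmodified 3T3-L1 cell. Each line was sampled at days -2, 0, +2 and +4 with 1 Agilent one-colour array per line and day. Both lines grew in 10% newborn calf serum, and after confluence at day 0 both received 0.5 mM isobutylmethylxanthine, 1 µM dexamethasone and 167 nM insulin. The arrays of days +2 and +4 therefore come from hormone-treated cells in both lines. The sources used here do not say whether sh8 is 1 clone or a pool, and no line with a control hairpin was analysed here.

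Values are the log2 of a probe's processed signal minus the 75th percentile of its array, so 0 is the level of that percentile and 1 unit is a doubling. The percentile lay between 760 and 1239 intensity units, the share of probes well above background was 64.9% to 81.7%, and no spot was saturated. Days -2 and 0 were read in one scan (scan 1) and days +2 and +4 in another (scan 2), so the scan cannot be told apart from the induction. WT took the same array positions in both scans and sh8 the others, so position cannot be told apart from line. All 8 of 8 preadipocyte and fibroblast markers were well above background on every array. Of 6 genes listed here as smooth muscle markers, not all of them particular to it, Smtn and Ldb3 were well above background on 8 arrays and Cnn1 on 5. Lmod1 was on 2 and Myh11 and Myocd on 1 each. The smooth muscle label therefore describes what the 9 genes are known for, not the identity of these cells.

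In smooth muscle, actin and myosin filaments slide past each other to shorten the cell, and tropomyosins, calponins and transgelin sit on the actin filament and steady or regulate it. Many of these genes are switched on by serum response factor, the product of Srf, which binds a DNA element called the CArG box with cofactors of the myocardin family. Fibroblasts and preadipocytes use part of the same set in their stress fibres, and alpha smooth muscle actin is the usual mark of a myofibroblast. Loss of stress fibres is a known step of fat cell formation in culture.

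The promoters are shown because the CArG box is the known link between Srf and the other genes. The box is CC, then 6 letters that are each A or T, then GG, and it reads the same way on both strands. In the RefSeq promoter table of build GRCm38.p6, which gives 250 bases before and 50 after a gene's start, 7 of the 9 genes had an entry. Tagln and Actg2 are named only. A full box stood in 3 of the 7, Myl9, Cnn2 and Srf, against 535 of all 32851 promoters in the table (1.63%). A box with one letter changed stood in 4 of the 7, against 19.9% of all promoters. Among the other genes of the pathway lists counted further on, 9 of 85 held a full box (10.6%) and 28 of 85 a box with one letter changed (32.9%). Below are the 180 bases before the start of 4 genes, 5′ to 3′ on the strand of the gene, for Acta2 chr19:34255374-34255553 (minus strand), for Myl9 chr2:156775284-156775463 (plus strand), for Cnn2 chr10:79988420-79988599 (plus strand) and for Srf chr17:46556163-46556342 (minus strand). Capitals mark full boxes in Myl9, Cnn2 and Srf, and in Acta2, which had no full box, the 2 stretches that are one letter off.
Acta2: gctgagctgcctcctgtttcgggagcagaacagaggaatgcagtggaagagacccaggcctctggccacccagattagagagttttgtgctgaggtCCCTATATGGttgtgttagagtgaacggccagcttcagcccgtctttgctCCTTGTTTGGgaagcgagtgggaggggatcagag
Myl9: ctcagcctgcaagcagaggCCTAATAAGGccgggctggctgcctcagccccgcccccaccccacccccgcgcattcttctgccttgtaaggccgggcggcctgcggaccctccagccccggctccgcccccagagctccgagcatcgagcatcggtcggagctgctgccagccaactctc
Cnn2: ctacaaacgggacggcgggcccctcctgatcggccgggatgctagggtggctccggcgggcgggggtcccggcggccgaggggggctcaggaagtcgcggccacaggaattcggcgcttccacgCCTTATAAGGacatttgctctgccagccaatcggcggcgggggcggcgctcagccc
Srf: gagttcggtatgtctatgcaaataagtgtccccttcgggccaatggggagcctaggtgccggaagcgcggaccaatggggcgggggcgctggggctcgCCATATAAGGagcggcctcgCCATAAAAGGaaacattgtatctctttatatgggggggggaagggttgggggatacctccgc
Srf itself held 2 full boxes, starting at -82 and -62 relative to the gene's start, and 1 stretch that is one letter off at -39. Myl9 held 1 full box at -161 and a stretch one letter off at -99. The stretches of Acta2 began at -84 and -34. Cnn2 held its full box at -56, Tpm1 held 2 stretches one letter off at -221 and -80, and Cnn1 and Tpm2 held neither kind within this window. A match is a matter of letters in this window and says nothing about binding.

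**Figure D1:**
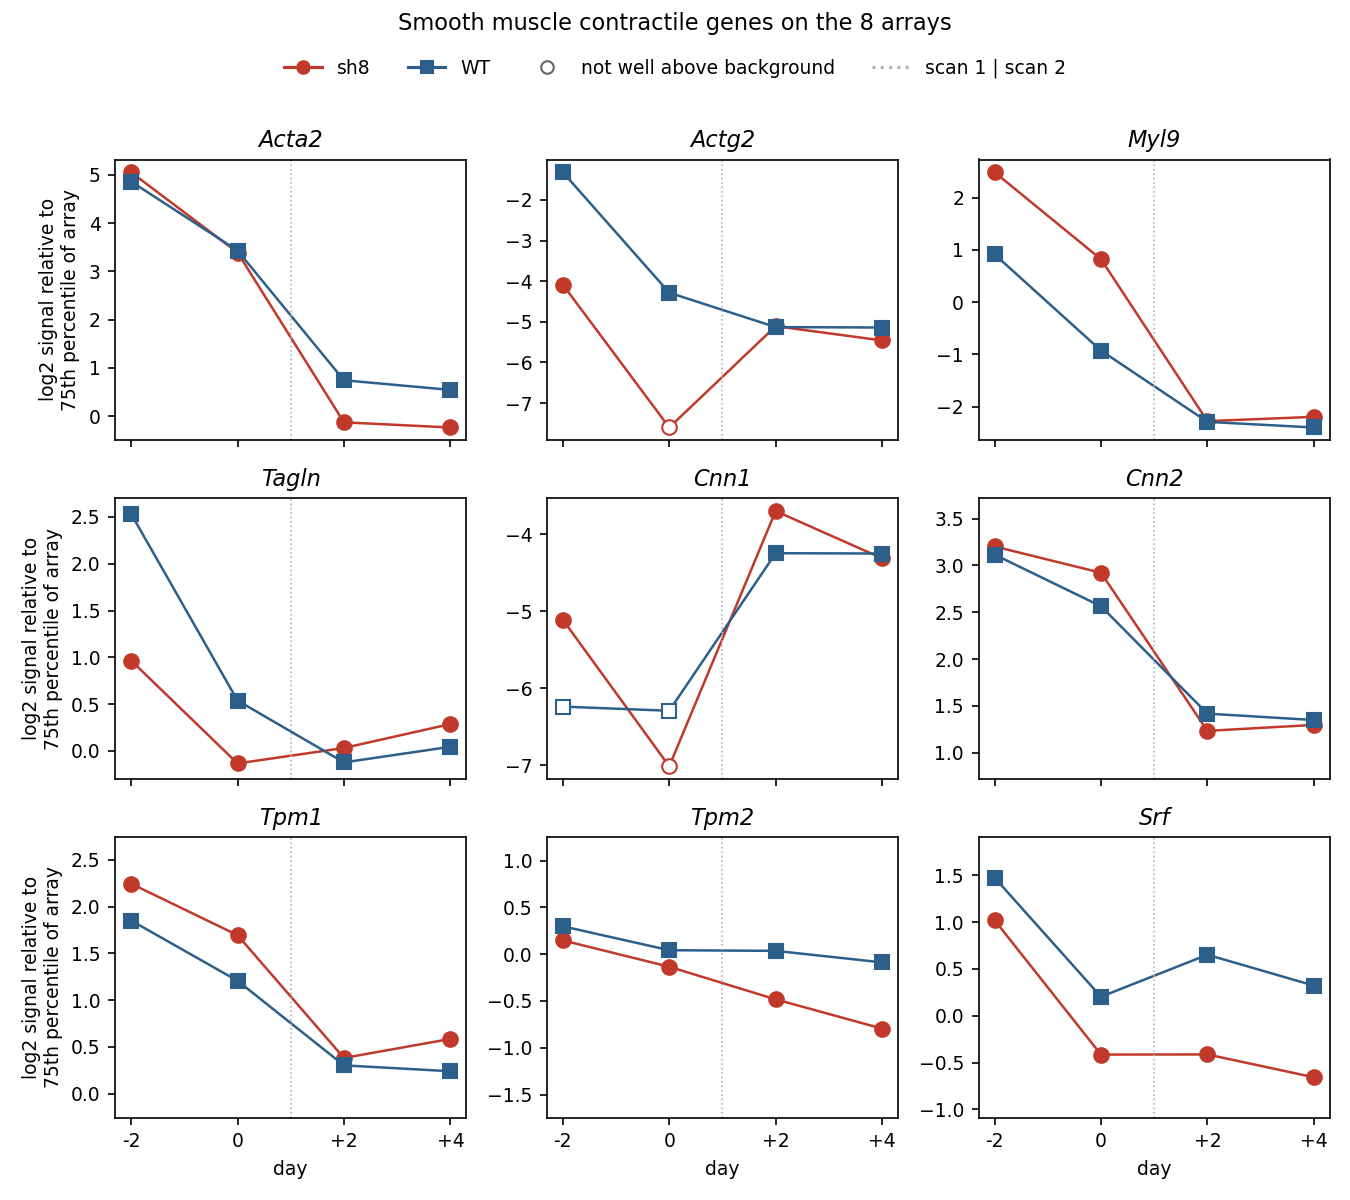
Log2 signal relative to the 75th percentile of the array (vertical axis, one scale per gene) on days -2 to +4 (horizontal axis) for the 9 genes, with sh8 as circles and WT as squares, 1 array per point. Open symbols are arrays where the probe was not well above background, and the dotted line separates scan 1 from scan 2. Acta2, Myl9, Cnn2 and Tpm1 step down in both lines by day +2, and Srf lies lower in sh8 on every day.

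Across the whole time course most of the contractile genes stood lower at the end than at the start, in both lines. Between day +4 and day -2, 8 of 9 genes had a lower value in sh8 and 8 of 9 in WT. At a fold of at least 2 (1 on the log2 scale), 6 of 9 were lower in sh8, where 7.27% of all features were, and 7 of 9 were lower in WT, where 7.54% of all features were. The median difference of the 9 genes was -1.66 in sh8 and -1.77 in WT. Cnn1 was the exception in both lines, with differences of 0.80 in sh8 and 1.99 in WT. Its WT array of day -2 was not well above background. Each of these differences rests on 1 array against 1 array and has no test, and in these bulk samples fewer cells of a kind and less RNA per cell cannot be told apart.

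Acta2, alpha smooth muscle actin, covered the widest range of the genes measured on all arrays. Its values at days -2, 0, +2 and +4 were 5.05, 3.39, -0.13 and -0.23 in sh8, against 4.86, 3.43, 0.75 and 0.55 in WT. Both lines were high at day -2, lower at day 0 and near the array's 75th percentile after induction, with the lines close together until day 0 and sh8 the lower line on the last days. Day +4 lay below day -2 by 39.0-fold in sh8 and by 19.9-fold in WT.

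Actg2, gamma smooth muscle actin of the gut wall, was dim and had its highest value in WT cells before confluence. It read -4.09, -7.60, -5.11 and -5.46 at days -2, 0, +2 and +4 in sh8, against -1.32, -4.28, -5.13 and -5.14 in WT. The sh8 array of day 0 was not well above background, so that value is only an upper bound. WT stood above sh8 at days -2 and 0, and the lines lay together after induction.

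Myl9, the regulatory light chain of smooth muscle myosin, gave 2.49, 0.82, -2.28 and -2.19 in sh8, against 0.91, -0.93, -2.29 and -2.40 in WT. It was higher in sh8 on both days before induction and almost equal in the lines afterwards.

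Tagln, transgelin or SM22 alpha, an actin-bundling protein, gave 0.97, -0.13, 0.03 and 0.29 in sh8, against 2.53, 0.54, -0.12 and 0.04 in WT. The WT array of day -2 stood above the other 7, and its level was 5.79 times the 75th percentile against 1.95 times in sh8. After that day the values of both lines lay within a narrow band.

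Cnn1, calponin 1, which binds actin and slows myosin in differentiated smooth muscle, was near background before induction. It read -5.11, -7.01, -3.70 and -4.31 in sh8, against -6.24, -6.29, -4.25 and -4.25 in WT. The sh8 array of day 0 and both early WT arrays were not well above background, and the 4 arrays after induction were the highest.

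Cnn2, the calponin that non-muscle cells also make, gave 3.20, 2.92, 1.23 and 1.30 in sh8, against 3.12, 2.56, 1.42 and 1.35 in WT. Tpm1, a tropomyosin with many splice forms, gave 2.24, 1.69, 0.38 and 0.59 in sh8, against 1.85, 1.21, 0.30 and 0.24 in WT. On their brightest probes, which these values are, both genes were high at days -2 and 0 and lower at days +2 and +4. Their other probes, given further on, moved less or had their step elsewhere.

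Tpm2, beta tropomyosin, gave 0.15, -0.13, -0.48 and -0.80 in sh8, against 0.30, 0.04, 0.04 and -0.09 in WT. Its WT values lay in a narrow band, and sh8 was below WT on each day. Srf gave 1.02, -0.42, -0.41 and -0.66 in sh8, against 1.48, 0.20, 0.65 and 0.32 in WT. Both lines had their highest Srf value at day -2, and sh8 was the lower line on every day.

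sh8 was compared with WT over all 4 days to ask whether the line with the hairpin differed in these genes, with day as a factor in the fit. Srf was the gene of the 9 that passed, and it was 1.72-fold lower in sh8 (log2 -0.78 ± 0.14 SE, n = 4 arrays a line, limma adjusted p = 0.0237), with sh8 below WT on 4 of 4 days. Thus 1 of 9 genes was called, against 27.0% of all features in either direction (16.8% higher and 10.3% lower in sh8). At an unadjusted p under 0.05 it was 3 of 9, against 43.8%. The median difference of the 9 genes was -0.37, against 0.13 over all features. The arrays of the lines overlapped for each gene, since each line spans all 4 days.

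The other 8 genes did not pass. On its brightest probe Tpm1 was above WT on 4 of 4 days (log2 0.33, adjusted p = 0.0807). Its other probes gave -0.10, -0.13, 0.09 and 0.08, and the mean of all its probes gave 0.05 (adjusted p = 0.703). Tpm2 was below WT on 4 of 4 days (-0.39, adjusted p = 0.0896). Myl9 was also above WT on 4 of 4 days, by little on the last days (0.88 ± 0.36 SE, adjusted p = 0.127). The remaining genes had no common direction over the days. Actg2 differed by -1.59 ± 0.66 SE (adjusted p = 0.133), and by -0.64 with normexp background correction (0.202). Acta2 differed by -0.37 (adjusted p = 0.252) and Tagln by -0.46 (adjusted p = 0.341). Cnn1 differed by 0.22 and Cnn2 by 0.05, with adjusted p of 0.619 and 0.765.

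The Srf call was not kept in every setting, and in some of these few or no features of any kind were called. Within scan 2 alone the difference was -1.02 (adjusted p = 0.0362) and within scan 1 alone -0.54 (adjusted p = 0.129). It no longer passed without day 0 (adjusted p = 0.0799), without day +2 (0.0765), without day +4 (0.0951) or with the scan in place of day as the block (0.191). Over all features, 79 were called without day 0, and 0 without day +2, without day +4 or within scan 1. The lost call there is therefore not particular to Srf. With the scan as the block 5024 features were called. With each day left out in turn the Srf difference lay between -0.89 and -0.68. A second, dimmer Srf probe gave -0.22, -0.42, -0.82 and -0.59 in sh8 at days -2, 0, +2 and +4, against 0.12, -0.35, -0.53 and -0.53 in WT. Its direction was the same on each day, but its difference of -0.19 did not pass (adjusted p = 0.212).

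**Figure D2:**
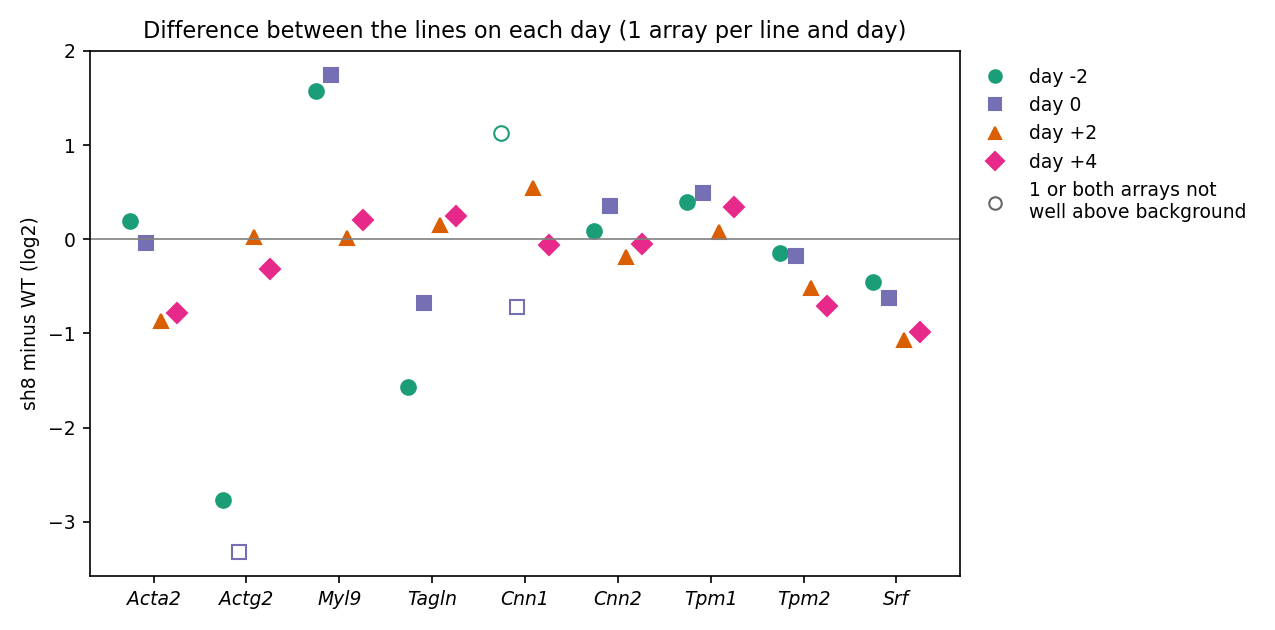
Difference of sh8 minus WT (log2, vertical axis) for each of the 9 genes (horizontal axis) on each day, 1 array against 1 array per point; open symbols have at least 1 array not well above background. Actg2 and Tagln lie far below 0 and Myl9 far above it before induction and near 0 afterwards, while Acta2 lies near 0 before induction and below it afterwards.

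Taken day by day, differences of 2-fold or more between the lines were most frequent at day -2 and absent at day +4. At day -2, 2 genes were at least 2-fold higher in sh8, Myl9 by 1.57 and Cnn1 by 1.13 (log2), where 4.74% of all features were, and Cnn1 was not well above background in WT. At that day 2 were at least 2-fold lower, Actg2 by -2.77 and Tagln by -1.57, where 4.08% of all features were. At day 0 the difference was 1.75 for Myl9 and -3.32 for Actg2, where 5.79% of all features were higher and 4.11% lower by that fold, and Actg2 was not well above background in sh8. At day +2 it was Srf that was lower, by -1.07, where 5.42% of all features were, and at day +4 none of the 9 reached that fold in either direction, where 14.6% of all features did. These are single arrays, so they carry no test.

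Whether the difference between the lines changed at induction was tested with an interaction term, which sets the sh8 minus WT difference of days +2 and +4 against that of days -2 and 0. None of the 9 genes passed, and 0.00% of all features did, although 6 of the 9 had an unadjusted p under 0.05, as did 19.9% of all features. Myl9 gave -1.55 ± 0.17 SE and Actg2 2.89 ± 0.27 SE, each with limma adjusted p = 0.121. The Actg2 value uses the sh8 array of day 0, which was not well above background, and it was 1.37 with normexp background correction (adjusted p = 0.110). Acta2 gave -0.90 ± 0.16 SE (adjusted p = 0.140) and Tagln 1.32 ± 0.35 SE (adjusted p = 0.195). For Srf it was -0.49 (adjusted p = 0.224), for Tpm2 -0.45 (0.242), for Cnn2 -0.34 (0.364), for Tpm1 -0.23 (0.496) and for Cnn1 0.04 (0.979). Myl9 and Acta2 passed with normexp background correction (adjusted p = 0.0131 and 0.0299) and with only probes well above background on all 8 arrays (0.0214 and 0.0427). Within the scans, sh8 minus WT for Myl9 was 0.11 in scan 2 and 1.66 in scan 1, and for Actg2 it was -0.15 in scan 2 and -3.04 in scan 1. For Tagln it was 0.20 in scan 2 and -1.12 in scan 1, and for Acta2 -0.83 in scan 2 and 0.08 in scan 1.

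Day 0 was compared with day -2 to follow the genes as the culture reached confluence, with both lines together. All 9 genes had lower values at day 0 in both lines, and for all 9 the day 0 arrays lay below the day -2 arrays, as they did for 17.3% of all features. For Cnn1 this order rests on unmeasured levels, since 3 of its 4 arrays were not well above background, and its change was 0.06 with normexp. None passed the test across all features, where 0.00% did. Of the 9, 6 had an unadjusted p under 0.05, against 25.4% of all features. The median was -1.35 for the 9 genes and 0.08 over all features.

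The nearest to the threshold was Srf, with -1.35 ± 0.20 SE (n = 2 arrays a day, limma adjusted p = 0.0674), and then Acta2 with -1.55 ± 0.32 SE (adjusted p = 0.0857). The second, dimmer Srf probe gave -0.34 (adjusted p = 0.220), so the size of the Srf change differed between its probes. Tpm1 gave -0.60 (adjusted p = 0.108), Myl9 -1.75 (0.130) and Tagln -1.55 (0.143). Actg2 gave -3.24 (adjusted p = 0.129) with its sh8 array of day 0 not well above background, and -1.32 with normexp (0.101). Cnn2, Cnn1 and Tpm2 gave -0.42, -0.98 and -0.27, with adjusted p between 0.220 and 0.429. Srf and Acta2 passed with normexp background correction (adjusted p = 0.0218 and 0.0300) and with only the probes well above background on all arrays (0.0286 and 0.0414).

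**Figure D3:**
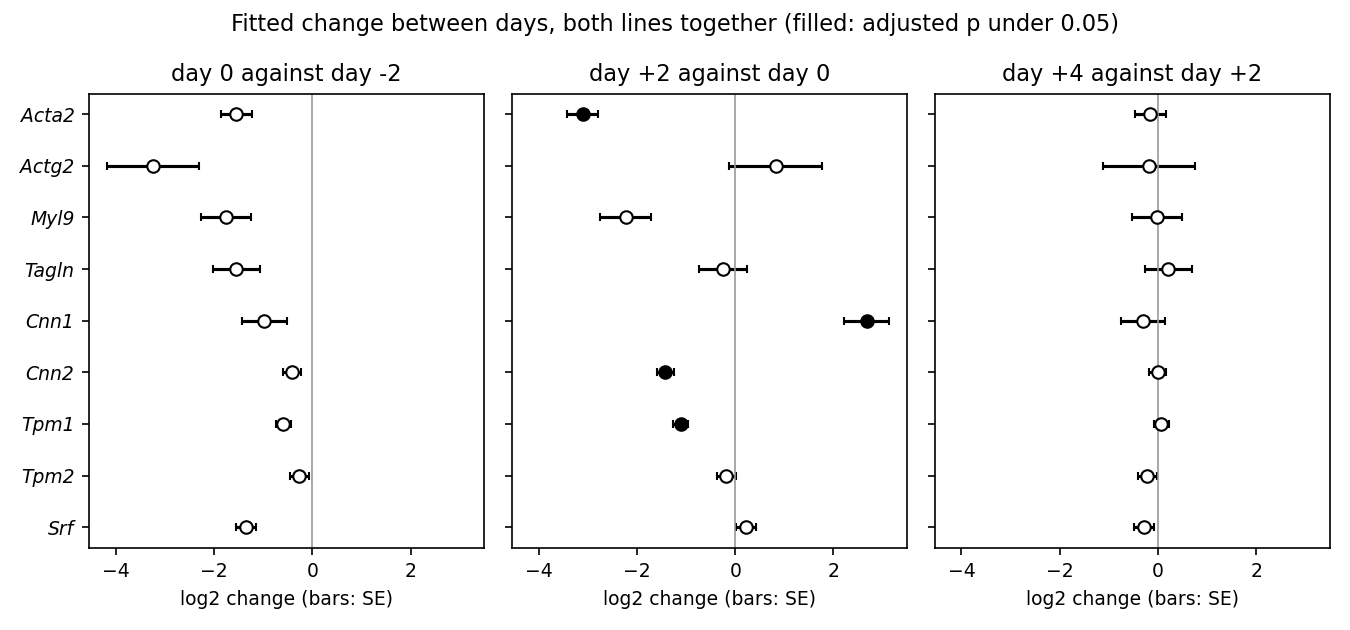
Fitted log2 change (horizontal axis, bars are the SE of the fit over 8 arrays) of the 9 genes (rows) between successive days, both lines together. Filled points had an adjusted p under 0.05: Acta2, Cnn2, Tpm1 and Cnn1 between day +2 and day 0, and none in the other panels.

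Day +2 was compared with day 0 for the change after the hormone mix. Acta2 fell 8.58-fold (log2 -3.10 ± 0.32 SE, n = 2 arrays a day, limma adjusted p = 0.0121), Cnn2 fell 2.67-fold (-1.42 ± 0.17 SE, adjusted p = 0.0172) and Tpm1 fell 2.16-fold (-1.11 ± 0.15 SE, adjusted p = 0.0214). Cnn1 rose, by at least 2.97-fold since it was not well above background on either day 0 array (means -3.97 at day +2 and -6.65 at day 0, adjusted p = 0.0309). With normexp background correction its change was smaller than that bound, 0.71 on the log2 scale (adjusted p = 0.0274). Thus 3 of 9 genes were called lower, against 2.89% of all features, and 1 of 9 higher, against 9.0% (2381 of 26461 features), with 11.9% in either direction. At an unadjusted p under 0.05 it was 5 of 9, against 31.7%. For 4 of the 9 all arrays of day +2 lay below those of day 0, as for 15.8% of all features. The median was -0.25 for the 9 genes and 0.11 over all features.

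The other 5 genes did not pass. Myl9 was lower in both lines, with -2.23 ± 0.51 SE (adjusted p = 0.0558), and it passed with only the probes well above background on all arrays (adjusted p = 0.0394). Actg2 gave 0.82 (adjusted p = 0.584), or 0.06 with normexp (0.952), Tagln -0.25 (0.753), Tpm2 -0.18 (0.560) and Srf 0.23 (0.480). For these 4 the arrays of the 2 days overlapped. The Srf values of day 0 already lay below those of day -2 in both lines. Between day +2 and day 0 the second Srf probe gave -0.29 (adjusted p = 0.236), the opposite direction to the brighter probe.

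The comparison of day +2 with day 0 crosses the 2 scans, so their effects cannot be told apart. Without day +4 in the fit, which leaves fewer arrays to estimate the spread, Acta2 alone of the 9 passed, with adjusted p of 0.0513 for Cnn2, 0.0586 for Tpm1 and 0.0706 for Cnn1. Lung epithelium transcripts also differed between the scans: on 9 of 9 measured markers the late arrays were well above background, with a summed level of 17.3 to 20.0 in sh8 and 19.3 to 23.4 in WT in scan 2. In scan 1 the sum was 6.93 to 7.61 in sh8, with 4 to 5 of 9 markers well above background, and 9.75 to 10.6 in WT, with 6 of 9. Most of the scan 1 sum was Lamp3, which changed by 0.18 between day +2 and day 0 (limma adjusted p = 0.443). The sums therefore understate the other lung markers. At that step 6 of 9 were called higher and 0 lower. Sftpc rose at least 117-fold, Sftpa1 41.1-fold and Scgb1a1 24.2-fold. The listed smooth muscle markers summed to 43.8 to 61.1 in sh8 and 45.5 to 50.03 in WT in scan 2, and to 51.8 to 55.3 in sh8 and 45.2 to 46.6 in WT in scan 1, nearly all of it Smtn. Their part in the Cnn1 result was not tested.

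Between day +4 and day +2 none of the 9 genes passed, and 0.00% of all features did. The adjusted p of the 9 lay between 0.843 and 0.998, none had an unadjusted p under 0.05, and 5.43% of all features did. The largest differences were -0.31 for Cnn1, -0.29 for Srf and -0.22 for Tpm2. In the order of the days, neighbouring levels of Acta2, Cnn2 and Tpm1 thus passed the test between days 0 and +2 and did not between +2 and +4.

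**Figure D4:**
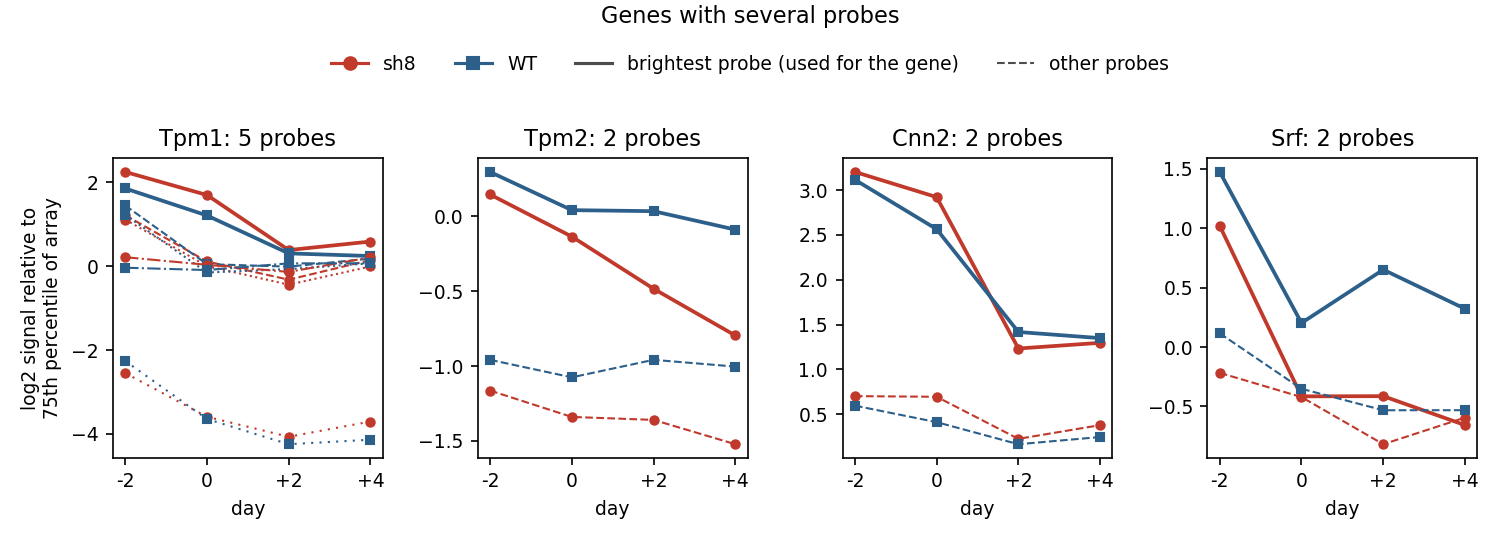
Log2 signal relative to the 75th percentile of the array (vertical axis) on days -2 to +4 (horizontal axis) for every probe of the 4 genes with several probes, with sh8 as circles and WT as squares. Solid lines are the brightest probe, which stood for the gene, and broken lines the others. The brightest Tpm1 probe steps down after day 0, while 3 other Tpm1 probes step down before it.

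Tpm1 was measured by 5 probes, which differed in where their step lay. The brightest, for the RefSeq form NM_001164249, gave -0.60 between day 0 and day -2 and -1.11 between day +2 and day 0. Both probes for NM_001164248 placed most of their difference earlier, with -1.24 and -1.25 between day 0 and day -2 (adjusted p = 0.0609 and 0.0567) and -0.18 and -0.25 between day +2 and day 0 (0.498 and 0.324). The dim probe for NM_001164251 gave -1.21 and then -0.54 (adjusted p = 0.0681 and 0.151), and the probe for NM_001164255 gave -0.12 and -0.01. The fall of Tpm1 after day 0 was therefore called on 1 of 5 probes, and over the mean of all probes it was -0.42 and did not pass (adjusted p = 0.124).

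The second Cnn2 probe was dimmer and moved less, with -0.36 between day +2 and day 0 (adjusted p = 0.140) where the brightest probe gave -1.42. Its values were 0.70, 0.69, 0.22 and 0.38 in sh8, against 0.59, 0.41, 0.16 and 0.24 in WT, so within each line the late values were lower on this probe too. The second Tpm2 probe gave -0.35 for sh8 against WT (adjusted p = 0.0594), close to -0.39 on the brighter one, and was below WT on each day. Acta2, Actg2, Myl9, Tagln and Cnn1 each had 1 probe.

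Over the 8 arrays, on the brightest probe of each gene, the 9 genes differed in how closely they followed each other. Pearson's r of a gene with the mean of the other well-measured genes was 0.974 for Acta2, 0.958 for Cnn2, 0.940 for Tpm1 and 0.899 for Myl9. It was 0.735 for Tpm2, 0.671 for Tagln, 0.647 for Srf and 0.507 for Actg2, and it was -0.704 for Cnn1. These describe 8 arrays that share the same days, scans and scaling. The mean profile of the 7 genes well above background on all arrays, each centred on its own mean, was 1.40, 0.40, -1.0 and -1.01 in sh8 at days -2, 0, +2 and +4, against 1.39, 0.24, -0.66 and -0.76 in WT.

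The genes most like that profile, of 4228 well-measured genes with an SD of at least 0.5, were Rassf7 (r = 0.993), Nrg1 (0.989), Ajuba (0.987), Cep250 (0.986), Acta1 (0.983), Anxa3 (0.982), Mrpl54 (0.980), Hoxc13 (0.975), Utp20 (0.975) and Hspb6 (0.974). Nrg1 encodes neuregulin 1, a growth factor, Ajuba a LIM protein of cell junctions, Acta1 skeletal muscle alpha actin, and Hspb6 a small heat shock protein of muscle. Acta1 gave -0.14, -1.82, -4.93 and -5.22 in sh8, against -0.89, -2.26, -4.94 and -4.62 in WT. It fell 7.42-fold between day +2 and day 0 (log2 -2.89 ± 0.34 SE, limma adjusted p = 0.0160). Acta1 was picked here for following a profile that includes Acta2, so a fall at this step is built into the choice. The most opposite were Peli2 (r = -0.995), Zfp133-ps (-0.990), Zcchc24 (-0.990), Birc2 (-0.990) and Cerk (-0.989). With 8 arrays and 4228 candidates such values carry no test.

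Genes around the contractile set were counted for the 2 comparisons that had calls. The background for every list below is that given above: 27.0% of all features called for sh8 against WT (16.8% higher and 10.3% lower), and 11.9% for day +2 against day 0 (9.0% higher and 2.89% lower). Nothing particular to a list is read from its count. Among 23 measured other smooth muscle contractile genes, 5 were higher and 3 lower in sh8 than in WT, with a median of 0.14 against 0.13 over all features. Itga8, the integrin alpha 8 chain, was higher by 1.57 ± 0.10 SE (adjusted p = 0.00838), Csrp1, a LIM protein, by 0.88 ± 0.11 SE (0.0138), and Vcl, vinculin, by 0.53 ± 0.09 SE (0.0226), while Flna, filamin A, was lower, with -0.91 ± 0.12 SE (0.0144). Between day +2 and day 0, 4 of 23 rose and 1 fell, with a median of -0.11 against 0.11 over all features. The heat shock protein gene Hspb1 rose at least 14.8-fold and Pdlim3, a PDZ and LIM protein of muscle, at least 1.08-fold, both not well above background on the day 0 arrays (adjusted p = 0.0105 and 0.0279). Itga8 rose by 0.87 ± 0.15 SE (adjusted p = 0.0310), and Nexn, nexilin, fell by 1.64 on the log2 scale (0.0333).

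Of 9 other actins, calponins, transgelins and tropomyosins, Cnn3 was the one called in sh8 against WT (-0.54 ± 0.11 SE, adjusted p = 0.0306), and the list's median was 0.15. Between day +2 and day 0, Acta1 fell as given above and Actc1, cardiac alpha actin, rose at least 4.85-fold (0.00686), being not well above background on the day 0 arrays, and the median was -0.18. Markers of other cell types were called higher at the same step. These were 6 of 9 lung markers, 2 of 5 cardiac ones (Myh6, by 9.27-fold, adjusted p = 0.00686, and Nppa) and 2 of 9 skeletal muscle ones (Myog and Mylpf). Also called higher were 2 of 7 endothelial ones (Cdh5 and Emcn), 2 of 7 macrophage and leukocyte ones (Lyz2 and Ptprc) and 1 of 4 pericyte ones (Notch3). Acta1 of the skeletal muscle list and Aif1 of the macrophage and leukocyte list (-0.67, adjusted p = 0.0452) were called lower. Mylpf and Emcn were not well above background on the day 0 arrays and no bound could be set, so their rise is not measured. Myog, Cdh5, Lyz2 and the lung marker Foxj1 were not well above background there either. Their rises are bounds, of at least 1.42-fold, 2.54-fold, 4.16-fold and 8.49-fold. The part of these cell types in the rises of Actc1, Hspb1, Pdlim3 and Cnn1 was not tested. Of 19 myosin II chains and regulators, 3 were higher and 2 lower in sh8, with a median of 0.12. Among them Rock2, a kinase that raises myosin light chain phosphorylation, was higher by 1.36 ± 0.29 SE (adjusted p = 0.0306), Myl12b, the non-muscle relative of Myl9, was higher by 0.44 ± 0.09 SE (0.0274), and Prkg1, a cGMP-dependent kinase that relaxes smooth muscle, was lower, with -1.01 ± 0.18 SE (0.0222). Prkg1 was well above background on 2 of 4 sh8 arrays and on 4 of 4 WT arrays, so the size of its difference is uncertain. At day +2 against day 0 the median was -0.13 and 2 of 19 rose, Myh14, a non-muscle myosin chain, by 2.70 ± 0.14 SE (adjusted p = 0.00495) and Rhob, a small GTPase, by 1.45 ± 0.14 SE (0.0105).

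Srf acts with cofactors and drives immediate early genes. Of 13 measured cofactors, none was higher and 2 were lower in sh8 than in WT, Tead4 with -1.33 ± 0.15 SE (adjusted p = 0.0123) and Csrp2 with -0.84 ± 0.21 SE (0.0450), at a median of -0.05. Between day +2 and day 0, Tead4 rose by 1.49 ± 0.21 SE (adjusted p = 0.0217) and Mrtfa, a myocardin-related cofactor that actin monomers hold back, by 0.62 ± 0.13 SE (0.0436), at a median of -0.06. Of 11 immediate early targets, Fosl1 was higher in sh8 by 0.66 ± 0.11 SE (adjusted p = 0.0205) and Egr1 lower, with -1.39 ± 0.28 SE (0.0291), at a median of 0.08. At day +2 against day 0, Fosl1 rose by 1.97 ± 0.15 SE (0.00812) and Nr4a1 by 2.30 ± 0.33 SE (0.0224), at a median of 0.30. Between day 0 and day -2 the median of these 11 targets was -1.83, against 0.08 over all features and -1.35 for the 9 contractile genes. With limma 0 of the 11 were called, and 9 had an unadjusted p under 0.05, against 25.4% of all features. The other lists had medians nearer to that of all features at this step. They were -0.11 for the other smooth muscle contractile genes, -0.27 for the other actins and their partners and -0.12 for the myosin II list. For the cofactors the median was -0.14, for the TGF-beta list 0.21 and for the focal adhesion genes -0.39. A shared cause was not tested.

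Of 18 measured genes of the TGF-beta pathway, which induces contractile genes in fibroblasts, 7 were higher and 1 lower in sh8 than in WT, beside 16.8% and 10.3% of all features, with a median of 0.35 against 0.13 over all features. Smad2, a transducer, was higher by 1.04 ± 0.13 SE (adjusted p = 0.0146), the receptor gene Tgfbr2 by 0.86 ± 0.11 SE (0.0137) and the target Pmepa1 by 0.61 ± 0.10 SE (0.0197), while Ltbp2 was lower, with -1.02 ± 0.15 SE (0.0170). Between day +2 and day 0 none rose and 4 fell, at a median of -0.12. These were the ligand gene Tgfb3 with -1.18 ± 0.12 SE (adjusted p = 0.0126), Ltbp2 with -1.27 ± 0.21 SE (0.0298), Pmepa1 with -0.97 ± 0.14 SE (0.0229) and Tgfb1 with -0.73 ± 0.15 SE (0.0423). Of 20 focal adhesion genes, the anchors of stress fibres, 5 were higher and 4 lower in sh8 (median 0.08), and 1 rose and 2 fell at day +2 against day 0 (median -0.13). Itga11, a collagen receptor chain, was lower in sh8 with -2.42 ± 0.18 SE (adjusted p = 0.00869) and fell at day +2 with -2.44 ± 0.26 SE (0.0126). Vcl and Csrp2 stand in 2 of these lists each. None of these lists had a call with limma between day 0 and day -2, between day +4 and day +2 or in the interaction. At an unadjusted p under 0.05 there were 2 to 11 genes a list between day 0 and day -2, 0 to 2 between day +4 and day +2 and 1 to 4 in the interaction, where 25.4%, 5.43% and 19.9% of all features had one.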

How the data were processed

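RNA of 8 samples, taken with TRIzol and labelled with Cy3, was read on 8 one-colour Agilent arrays, 1 per line and day, with Feature Extraction 11.0.1.1 per the file headers, which name build mm9. The deposited files hold a processed intensity per spot, already background-corrected by that software. The authors also deposited a value table on a log2 scale with shared quantiles and no centring per gene. The sources used here do not say how it was made, and it served as an alternative.

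Control spots and 46 probes with an outlier flag were left out, and repeat spots were averaged, which left 39383 probes. The log2 of the processed intensity, less the 75th percentile of its array, was tested with limma 3.58.1 in R 4.3.3 across 26461 features (17548 named genes and 8913 unnamed), with the highest-mean probe of a gene and Benjamini-Hochberg adjusted p under 0.05 as the call. Names came through RefSeq accessions from a table of build GRCm38.p6. The model held day (4 levels) and line and left 3 residual degrees of freedom, and the interaction model left 2. Each line and day is 1 array, so their number limits the precision. Nothing says that the days are separate cultures. With 1 array per line and day there is no spread between replicates, and the p-values rest on what day and line leave unexplained. That remainder includes any change of the line difference from day to day. For Myl9 the SE was 0.36 for sh8 against WT and 0.17 for the interaction term, and for Actg2 it was 0.66 and 0.27.

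A change from a group with no array well above background is written as a bound, the bright group's mean against the higher of the dim value and the lowest value well above background on each array. All 9 members are given, and from each list up to 4 genes past the threshold with the lowest p. The members and lists were chosen with earlier results of these data known. The alternatives were quantile scaling, normexp (offset 50), the authors' table, other filters and probe rules, leaving out a day, and the scans. Normexp used the median signal, because the files hold no mean signal. The procedure was tested on simulated data, which held day and line effects with independent noise. They held no effect of scan or position and no line-by-day change, so that test says nothing on those limits.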

Additional observations from a re-analysis of the deposited data

Results flagged for a closer look

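Some steps between successive days ran in opposite directions in the lines. Tagln, the transgelin gene, differed between day +2 and day 0 by 0.17 in sh8 and by -0.66 in WT (log2). For the genes well above background on all arrays of a step, the other such steps lay between day +4 and day +2. Cnn2 differed there by 0.0635 in sh8 and by -0.0683 in WT, Myl9 by 0.0811 in sh8 and by -0.108 in WT, and Tpm1 by 0.203 in sh8 and by -0.0629 in WT. Actg2 differed between day +2 and day 0 by 2.49 in sh8 and by -0.85 in WT, but its sh8 array of day 0 was not well above background, so the size in sh8 is not known. Each step is 1 array minus 1 array, so the difference between the lines was not tested for any of them.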

How the results depend on the processing

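Each of the 9 genes was recomputed in each comparison under the alternatives. The number of genes called for sh8 against WT was 1, and it was 3 with normexp, 2 of 7 with probes well above background on all 8 arrays, 0 to 1 when each day was left out in turn, 0 within scan 1, 2 within scan 2 and 0 with the scan as the block. For day 0 against day -2 it was 2 in place of 0 with normexp and with all 8 arrays required, and likewise 2 in place of 0 for the interaction. For day +2 against day 0 it was 4, and 1 to 4 with a day left out. Over all features the calls for sh8 against WT were 7152, and 4208 without day -2, 79 without day 0, 0 without day +2 (9443 at unadjusted p under 0.05), 0 without day +4 (8649) and 0 within scan 1 (8384), all with limma. For day 0 against day -2 they were 0, and 3498 with normexp, 1669 with all 8 arrays required and 10 with the authors' values. For day +2 against day 0 they were 3145, and 1950 with quantile scaling, 1963 with the authors' values and 1032 without day +4. For day +4 against day +2 they were 0, and 1 with quantile scaling and with the authors' values, and for the interaction 0, 1323 with normexp and 1119 with all 8 arrays required.

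Directions turned in 16 cases, all of them for values that had not passed. For sh8 against WT, Acta2 gave 0.0762 within scan 1, Tagln 0.198 within scan 2, and Cnn2 -0.0121 with normexp and -0.118 within scan 2. With each day left out in turn, Cnn1 ranged from -0.0785 to 0.537 and Cnn2 from -0.0499 to 0.131. For the days, Cnn1 gave 0.0557 with normexp at day 0 against day -2, and Srf -0.0318 over the mean of its probes at day +2 against day 0. At day +4 against day +2, Cnn2 gave 0.0572 over the mean of its probes, and with normexp Myl9 gave 0.0119 and Actg2 0.0669. The interaction of Cnn1 was -0.189 with quantile scaling, -0.0947 with normexp, -0.191 with the authors' values, and between -0.884 and 0.962 with each day left out in turn. The cause was not tested. Of the other comparisons of a gene with its reported value, 438 kept their direction and their side of the threshold, 13 passed it newly and 9 no longer passed. Levels near background limit Cnn1 and Actg2.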
